A study of Mus musculus with 6 samples.

Results

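The growth cone membrane and stathmin genes are 9 genes, abundant in neurons, whose proteins are anchored to or span the growth cone membrane or are carried on its vesicles. They were chosen by gene symbol in the deposited transcript tables: Gap43, Basp1, Marcks, Marcksl1, Stmn2, Stmn3, Stmn4, Gpm6a and Ncs1. All 9 were found among the 24411 genes in the files, and all 9 passed the filter on low counts that left 5918 genes to test. The libraries were made from polyadenylated RNA of the corpus callosum, the axon tract that joins the cortical hemispheres, dissected by hand from 60 µm frozen sections of mouse brain on postnatal day 4. Of the 6 libraries, 3 came from mice labelled Mettl14 cKO, a conditional knockout of a subunit of the m6A (N6-methyladenosine) methyltransferase, and 3 came from mice labelled WT. The brains are labelled as from B6 mice. The labels give no Cre driver, no list of alleles for either group, and no word on whether the libraries are separate animals, so a p-value here speaks of the spread among libraries, which may be technical. The study concerns m6A and the mRNA that reaches axons, and the dissected tissue is labelled as callosal axon, although markers of glia were abundant in WT libraries.

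A growth cone is the motile tip of a growing axon. Its membrane holds large amounts of acidic, lipid-anchored proteins that bind phosphatidylinositol bisphosphate and release it when calmodulin binds them or protein kinase C phosphorylates them, which lets actin assemble beneath the membrane. GAP-43 (Gap43), CAP-23 (Basp1) and MARCKS (Marcks) are the classic proteins of this kind. The neuronal stathmins (Stmn2, also called SCG10, with Stmn3 and Stmn4) are vesicle-bound proteins that bind tubulin dimers and favour microtubule disassembly, and kinases such as JNK switch them off. Gap43 mRNA is known to travel into axons.

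The members attach to membranes in distinct ways, and the start of each coding sequence was read for codons that lipid anchors need. Such a codon alone does not show that a lipid is attached. The first 25 codons of each were read from GENCODE M21 transcripts. Capitals mark a second codon of the form GGN, which encodes the glycine that N-myristoylation needs, and every TGC or TGT codon, which encode cysteine, the residue that carries palmitate. Coordinates are GRCm38, run from the start codon to the last base shown, and can span introns.
Gap43, chr16:42292322-42340502, minus strand: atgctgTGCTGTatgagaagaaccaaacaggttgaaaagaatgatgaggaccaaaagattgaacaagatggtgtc
Basp1, chr15:25364835-25364909, minus strand: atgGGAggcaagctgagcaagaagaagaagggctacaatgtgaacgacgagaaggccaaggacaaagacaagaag
Marcks, chr10:37138461-37138535, minus strand: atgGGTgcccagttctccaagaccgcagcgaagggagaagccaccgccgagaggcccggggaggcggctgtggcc
Marcksl1, chr4:129513830-129513904, plus strand: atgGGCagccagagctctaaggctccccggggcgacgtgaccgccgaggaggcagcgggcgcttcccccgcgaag
Stmn2, chr3:8509612-8541896, plus strand: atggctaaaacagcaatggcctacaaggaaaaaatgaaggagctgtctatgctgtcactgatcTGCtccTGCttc
Stmn3, chr2:181309187-181314212, minus strand: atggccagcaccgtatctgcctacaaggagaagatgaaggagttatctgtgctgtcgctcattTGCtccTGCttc
Stmn4, chr14:66354433-66355647, plus strand: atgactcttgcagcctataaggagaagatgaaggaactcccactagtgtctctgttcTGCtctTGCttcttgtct
Gpm6a, chr8:54955279-55037365, plus strand: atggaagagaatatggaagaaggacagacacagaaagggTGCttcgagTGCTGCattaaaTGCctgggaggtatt
Ncs1, chr2:31246179-31270622, plus strand: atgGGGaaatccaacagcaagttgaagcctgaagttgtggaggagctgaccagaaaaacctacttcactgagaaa

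By this reading the 9 members fall into 2 sets that do not overlap. A GGN second codon was found in 4 members (Basp1, Marcks, Marcksl1 and Ncs1), none of which had a cysteine codon in the window. The other 5 (Gap43, Stmn2, Stmn3, Stmn4 and Gpm6a) had at least 2 cysteine codons. In Gap43 these are codons 3 and 4, in Stmn2 and Stmn3 codons 22 and 24, and in Stmn4 codons 20 and 22. Among 5848 tested genes whose coding start could be read, 7.25% had a GGN second codon and 9.37% had at least 2 cysteine codons in the first 25. The members were chosen as membrane-bound proteins, so this is a description of the choice.

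Total expected counts were 670462 to 1208382 in cKO libraries and 843647 to 1268430 in WT libraries. The targeted gene Mettl14 had 2, 7 and 2 counts in cKO replicates 1 to 3 and 11, 8 and 5 in WT replicates 1 to 3, and its CPM differed with p = 0.3 in an exact two-sided permutation test, whose smallest possible p at 3 against 3 is 0.1. Xist was counted in cKO libraries only and the Y-linked Eif2s3y in WT libraries only, so genotype and this difference cannot be told apart. The replicate 2 library of each group was the deepest of its group and had the shortest fragments, 292.7 bases in cKO and 304.3 in WT, against 332.4 to 350.5 in the others. Replicate 3 of cKO was the shallowest library. Among 3048 genes with a mean of at least 50 CPM (counts scaled to library size by TMM), 34.4% stood in that library at no more than 0.5 times the mean of the other cKO libraries. The same share was 17.4% and 8.27% for cKO replicates 1 and 2, and 29.9%, 3.87% and 22.0% for WT replicates 1 to 3.

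All members but Stmn4 and Ncs1 ranked among the 274 most abundant genes in every library. On the TPM scale, which divides by transcript length and so allows genes to be compared, the 9 members together made up 1.57%, 1.36% and 1.16% of all transcripts in cKO replicates 1 to 3 and 1.14%, 0.907% and 1.04% in WT replicates 1 to 3. In each cKO library Basp1 was the highest member, followed by Marcksl1 and then Stmn2. In each WT library Marcksl1 was the highest, and Basp1, Stmn3 and Stmn2 followed in an order that differed between libraries. Ncs1 was lowest in all 6. In the cKO order of mean TPM, Basp1 stood clear of its neighbour Marcksl1 and every other pair of neighbours had overlapping ranges. In the WT order, ranges were apart between Stmn2 and Gap43, between Gpm6a and Stmn4, and between Stmn4 and Ncs1.

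**Figure D1:**
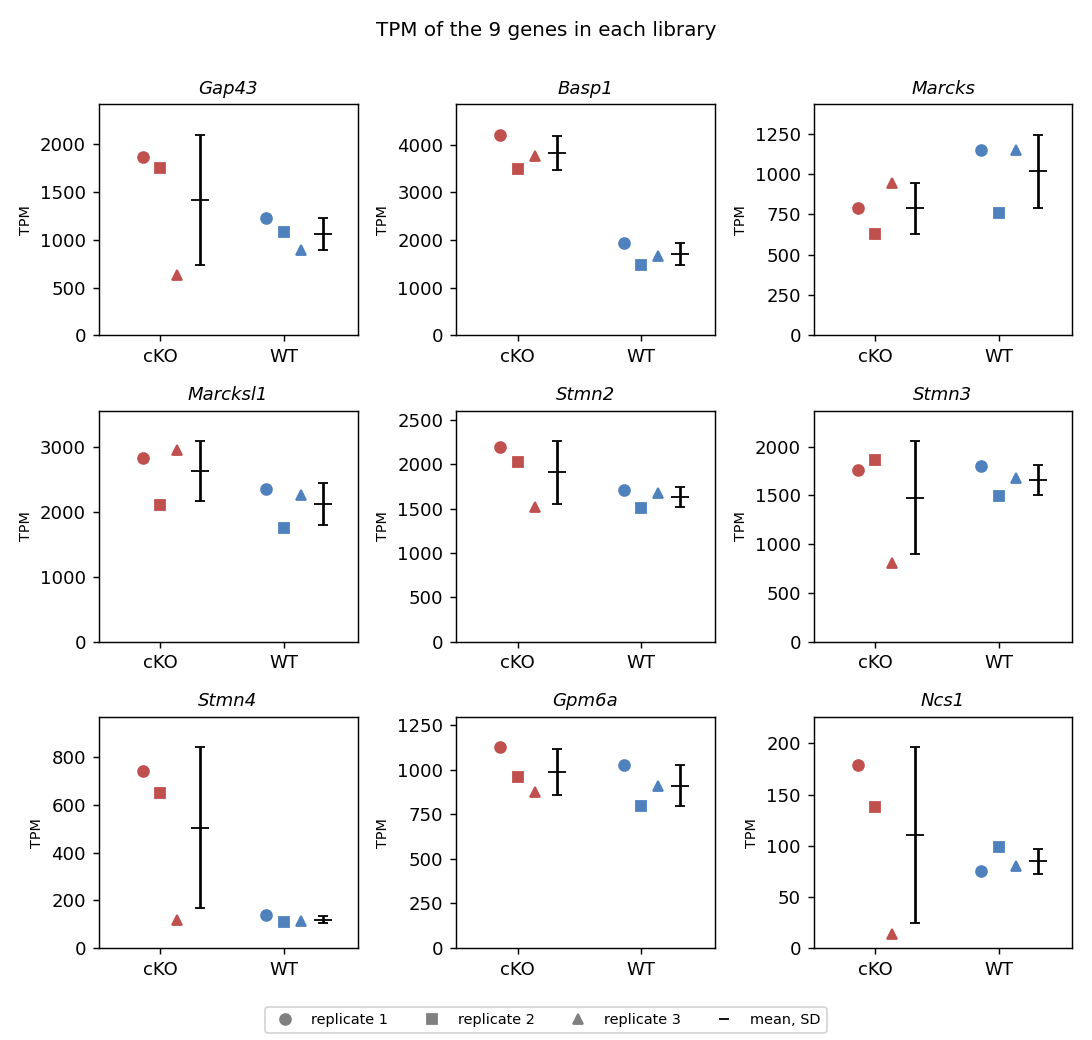
TPM (vertical axes, each from 0) of each of the 9 genes in cKO (left, red) and WT (right, blue) libraries; symbols give the replicate number, and the black bar with whiskers gives the mean and SD of 3 libraries. Basp1 lies between 3495 and 4212 TPM in cKO and between 1482 and 1946 in WT, while in cKO replicate 3 (triangle) Gap43, Stmn3, Stmn4 and Ncs1 lie far below the other cKO libraries.

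Between the genotypes, edgeR's quasi-likelihood test called 0 of the 9 members at a Benjamini-Hochberg adjusted p below 0.05, where it called 0.912% of all 5918 tested genes, 0.49% higher and 0.422% lower in cKO. At an unadjusted p below 0.05 there were 2 of 9 members, Basp1 and Stmn4, against 12.6% of all tested genes. DESeq2 called 2 of 9 members, again Basp1 and Stmn4 and both higher, against 4.22% of all genes called higher, 3.02% lower and 7.25% in either direction, and at an unadjusted p below 0.05 it had 2 of 9 members against 18.1% of all genes. With limma-voom 0 of 9 members were called, against 0.372% of all genes higher, 0.338% lower and 0.71% in either direction, and 1 of 9 had an unadjusted p below 0.05 against 12.3% of all genes. The CPM of the groups did not overlap for 2 of 9 members, Basp1 and Marcksl1, both higher in cKO, against 10.4% of all genes higher, 9.45% lower and 19.8% in either direction. The members' median log2 fold change, cKO over WT, was 0.35, beside 0.069 for all tested genes, with 7 positive and 2 negative values, where Stmn2 and Gpm6a were negative under upper-quartile scaling but stayed above the median of all genes there. Because whole tissue was sequenced, fewer cells of a type, or fewer of their axons, and less RNA per cell cannot be told apart in any of these values.

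Basp1 (chromosome 15, 25363277 to 25413764, GRCm38), which encodes the myristoylated growth cone protein CAP-23, had the smallest p of the members. It had 4212, 3495 and 3757 TPM in cKO replicates 1 to 3, against 1946, 1482 and 1668 TPM in WT replicates 1 to 3. The lowest cKO library thus stood above the highest WT library. The mean was 3821 ± 363.0 TPM in cKO and 1699 ± 233.3 TPM in WT (SD, n = 3 each). The fold was 2.36 (log2 fold change 1.24, SE 0.21). The edgeR adjusted p was 0.0633, and the unadjusted p of 0.000623 ranked 58 of all tested genes. An exact two-sided permutation test of TPM gave p = 0.1, the smallest that 3 against 3 libraries allow. The call differed between tools: the adjusted p was 1.56e-06 with DESeq2, 0.042 with limma on log2(TPM + 1) and 0.0568 with limma-voom. In edgeR it was 0.56 with upper-quartile scaling (log2 fold change 0.88), 0.209 with no filter and 0.218 with the replicate number as a block. With 1 library left out the edgeR adjusted p ran from 0.0638 to 0.325.

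Gap43 (chromosome 16, 42248552 to 42340651), the palmitoylated protein kinase C substrate that marks growing axons, had overlapping groups. It had 1872, 1752 and 630.2 TPM in cKO replicates 1 to 3, against 1226, 1078 and 890.0 TPM in WT replicates 1 to 3. Replicates 1 and 2 of cKO were above every WT library and replicate 3 was below every one. The log2 fold change was 0.56 (SE 0.50, edgeR adjusted p = 0.738). It was 0.98 without cKO replicate 3 (adjusted p = 0.128), but 0.19 without cKO replicate 1 (adjusted p = 0.964) and 0.11 with upper-quartile scaling. Basp1 was 2.25, 1.99 and 5.96 times as abundant as Gap43 in cKO replicates 1 to 3 on the TPM scale, against 1.59, 1.38 and 1.87 times in WT replicates 1 to 3. That ratio was higher in each cKO library than in any WT library.

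Marcks (chromosome 10, 37133243 to 37138926) encodes the main cellular substrate of protein kinase C among the actin-linked membrane proteins and is also made by glia. It had 789.7, 627.9 and 941.9 TPM in cKO and 1146, 755.5 and 1150 TPM in WT replicates 1 to 3. The groups overlapped, since WT replicate 2 lay below cKO replicates 1 and 3. The log2 fold change was −0.34 (SE 0.24, edgeR adjusted p = 0.654), with −0.55 when WT replicate 2 was left out and −0.20 when WT replicate 3 was. Marcksl1 (chromosome 4, 129513581 to 129515981), its smaller relative with the same myristoylated start and calmodulin-binding basic domain, had 2833, 2111 and 2963 TPM in cKO and 2357, 1755 and 2265 TPM in WT. These groups overlapped too on the TPM scale, at 0.35 on the log2 scale (SE 0.21, edgeR adjusted p = 0.58), and at 0.17 without cKO replicate 1 and 0.030 with upper-quartile scaling. On the CPM scale they did not overlap by a narrow margin, with 2276 CPM in the lowest cKO library and 2265 CPM in the highest WT library.

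The pair was more clearly separated as a ratio within each library, which does not depend on the scaling between libraries. There were 3.59, 3.36 and 3.15 Marcksl1 transcripts per Marcks transcript in cKO replicates 1 to 3, against 2.06, 2.32 and 1.97 in WT replicates 1 to 3. The mean ratio was 3.37 ± 0.22 in cKO and 2.12 ± 0.18 in WT (SD, n = 3 each), and the lowest cKO library stood well above the highest WT library. The ratio was picked as a description of paralogs and no test was made of it. Of 10 ratios between members that were computed, 6 did not overlap between the groups. These were Marcksl1 over Marcks, Stmn3 over Stmn2, and Basp1 over each of Gap43, Stmn2, Marcks and Marcksl1, so most of them repeat the Basp1 difference. The 4 that overlapped were Stmn4, Gap43, Ncs1 and Gpm6a over Stmn2. Only the ratios of Marcksl1 to Marcks and of Gap43 to Basp1 had been planned. No share over other pairs of genes was computed, so these counts have no background.

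The 3 stathmins had unequal fold changes. Stmn2 (chromosome 3, 8509527 to 8561604), the stathmin most tied to axon growth and regeneration, had 2190, 2024 and 1513 TPM in cKO and 1714, 1503 and 1671 TPM in WT replicates 1 to 3. Replicates 1 and 2 of cKO lay above the WT libraries, and replicate 3 lay within the WT range of TPM. On the CPM scale replicate 3, at 1504, was below every WT library (1644 to 2072). Its log2 fold change was 0.32 (SE 0.27, edgeR adjusted p = 0.72), and −0.065 with upper-quartile scaling, which moved the median of all genes to −0.22. It was 0.084 without cKO replicate 1 (adjusted p = 0.968) and 0.57 without cKO replicate 3 (adjusted p = 0.265). Stmn3 (chromosome 2, 181306459 to 181314500), also called SCLIP, had 1758, 1865 and 810.3 TPM in cKO and 1798, 1495 and 1674 TPM in WT. Replicate 1 of cKO lay within the WT range of TPM, replicate 2 just above it and replicate 3 far below it. On the CPM scale replicate 1, at 1177, was above every WT library too (at most 1058). The log2 fold change was −0.038 (SE 0.43, edgeR adjusted p = 0.989), with −0.31 without cKO replicate 2 and 0.34 without cKO replicate 3 (adjusted p = 0.85 and 0.553).

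Stmn4 (chromosome 14, 66344210 to 66361680), also called RB3, showed the largest difference among the members and the widest spread among cKO libraries but one. It had 743.4, 652.6 and 117.8 TPM in cKO replicates 1 to 3, against 137.4, 110.1 and 111.8 TPM in WT replicates 1 to 3. In counts these were 415, 505 and 47 in cKO and 80, 87 and 68 in WT. Replicates 1 and 2 of cKO were thus far above every WT library, while replicate 3 lay within the WT range of TPM. On the CPM scale replicate 3, at 66.48, was just below every WT library (69.88 to 89.85). The log2 fold change was 2.24 (SE 0.78), with an edgeR adjusted p of 0.30 and a DESeq2 adjusted p of 0.0359. It was 2.75 without cKO replicate 3 (edgeR adjusted p = 0.0509) and 1.75 without cKO replicate 1 (edgeR adjusted p = 0.671).

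The proportions of the stathmins were also set side by side within each library. Stmn4 made up 15.8%, 14.4% and 4.83% of the summed TPM of Stmn2, Stmn3 and Stmn4 in cKO replicates 1 to 3, against 3.77%, 3.54% and 3.23% in WT replicates 1 to 3. Stmn3 made up 37.5%, 41.1% and 33.2% in cKO and 49.3%, 48.1% and 48.4% in WT. Stmn2 made up 46.7%, 44.6% and 62.0% in cKO and 47.0%, 48.4% and 48.3% in WT. The Stmn4 share was higher and the Stmn3 share lower in each cKO library than in any WT library, and the Stmn2 shares overlapped. In cKO replicate 3 the Stmn4 TPM lay within the WT range while Stmn3 was low, so the higher Stmn4 share there came with a smaller sum. Set against Stmn2 alone, Stmn4 overlapped, at 0.339, 0.322 and 0.0779 Stmn4 transcripts per Stmn2 transcript in cKO replicates 1 to 3 and 0.0802, 0.0733 and 0.0669 in WT replicates 1 to 3. In WT libraries Stmn3 and Stmn2 were almost equal, with 0.994 to 1.05 Stmn3 transcripts per Stmn2 transcript, while cKO libraries had 0.535 to 0.921.

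**Figure D2:**
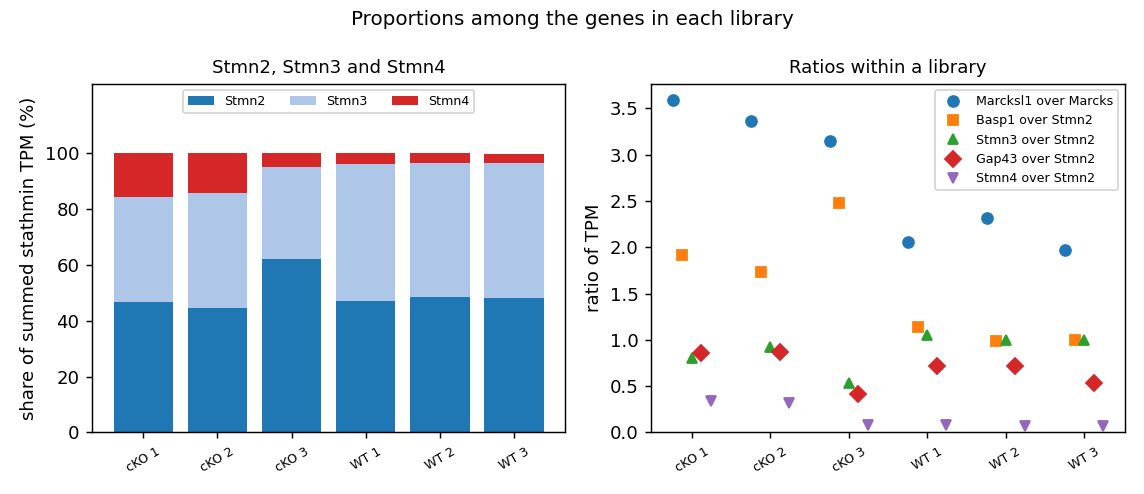
Left, stacked bars from 0 give the share (%) of Stmn2, Stmn3 and Stmn4 in their summed TPM in each library, cKO libraries first. Right, points give 5 ratios of TPM within each library, of which 3 do not overlap: Marcksl1 over Marcks is 3.15 to 3.59 in cKO and 1.97 to 2.32 in WT, Basp1 over Stmn2 is 1.73 to 2.48 in cKO and 0.986 to 1.14 in WT, and Stmn3 over Stmn2 is 0.535 to 0.921 in cKO and 0.994 to 1.05 in WT. Those that overlap are Gap43 over Stmn2, 0.416 to 0.865 in cKO and 0.533 to 0.717 in WT, and Stmn4 over Stmn2, 0.0779 to 0.339 in cKO and 0.0669 to 0.0802 in WT.

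Gpm6a (chromosome 8, 54779434 to 55060878) encodes a palmitoylated 4-pass membrane protein of the proteolipid family that promotes filopodia and neurite growth. It had 1125, 958.3 and 874.6 TPM in cKO and 1027, 795.8 and 907.0 TPM in WT replicates 1 to 3, and the groups overlapped. In TPM, cKO replicate 1 was above every WT library and cKO replicates 2 and 3 were inside the WT range. On the CPM scale cKO replicate 2, at 2165, was just above every WT library too (at most 2124). The log2 fold change was 0.19 (SE 0.24, edgeR adjusted p = 0.843), with −0.18 under upper-quartile scaling, −0.051 without cKO replicate 1 and 0.38 without cKO replicate 3. Gpm6a was the one member with more than 1 transcript in the files. Of its 3 transcripts, the one of 2966 bases took 58.6%, 81.5% and 43.5% of the gene's TPM in cKO replicates 1 to 3 and 41.8%, 57.5% and 82.2% in WT replicates 1 to 3, the one of 3337 bases took the rest and the one of 3144 bases was listed at 0 in all libraries. These shares are RSEM estimates for transcripts that overlap, and they varied as much within a group as between the groups.

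Ncs1 (chromosome 2, 31245708 to 31295989), a myristoylated calcium sensor that regulates neurite growth and transmitter release, was the least abundant member and the most uneven among cKO libraries. It had 178.8, 138.0 and 13.81 TPM in cKO replicates 1 to 3, against 75.62, 98.26 and 79.94 TPM in WT replicates 1 to 3. Replicates 1 and 2 of cKO were above every WT library, and replicate 3, with 23 counts, was below every one. The log2 fold change was 0.56 (SE 0.87, edgeR adjusted p = 0.884). Its sign differed between settings, with −0.12 in limma-voom, −0.24 in limma on log2(TPM + 1), −0.10 without cKO replicate 1 and 1.12 without cKO replicate 3, and none of these passed the threshold.

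**Figure D3:**
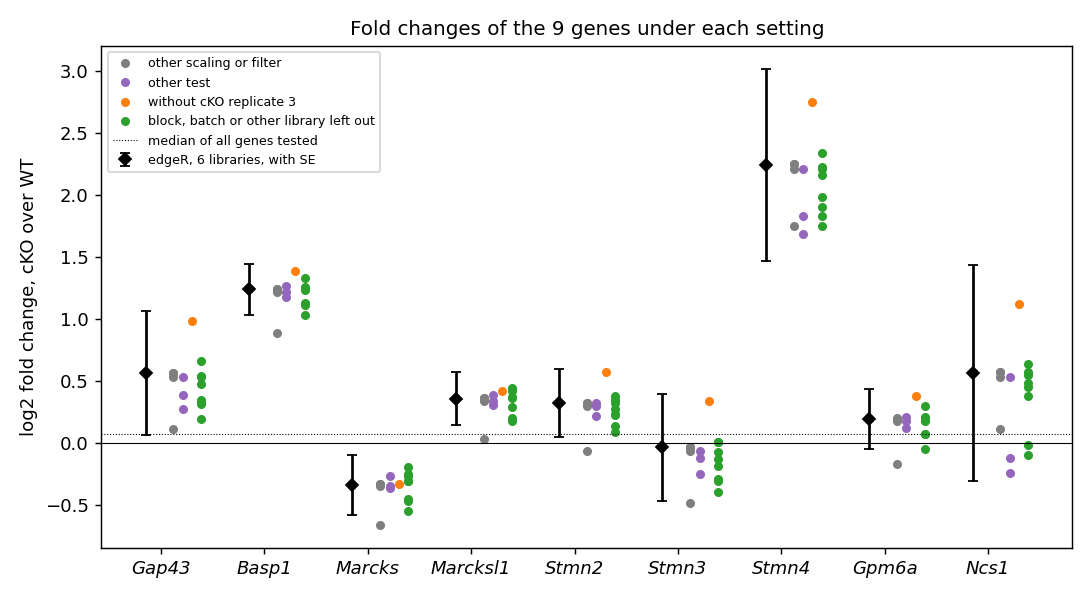
Log2 fold change, cKO over WT, of each gene from edgeR on all 6 libraries (black diamonds, whiskers give the SE) and under each alternative (coloured points); the dotted line is the median of all genes tested, 0.069. Basp1 and Stmn4 are positive and Marcks negative under all 16 alternatives, while Stmn3 and Ncs1 fall on both sides of 0.

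Replicate 3 of cKO stood low over abundant genes in general, with a median ratio of 0.737 to the other cKO libraries over 3048 genes. Against the mean of the other cKO libraries, its CPM was 0.258 times for Gap43, 0.329 for Stmn3, 0.125 for Stmn4, 0.0662 for Ncs1, 0.539 for Stmn2, 0.658 for Gpm6a and 0.732 for Basp1, but 0.897 for Marcksl1 and 1.01 for Marcks. At no more than 0.5 times stood 4 of 9 members, where 34.4% of abundant genes did, and in the other libraries no member did. Over the same 6 libraries WT values were close to each other: the SD was 6.85% to 22.3% of the mean TPM in WT for the 9 members, and 9.5% to 78.0% in cKO. Without cKO replicate 3, edgeR called 0 of 9 members, against 0.42% of all genes higher, 0.21% lower and 0.63% in either direction. At an unadjusted p below 0.05 there were 5 of 9 members, against 12.5% of all genes. Without cKO replicate 1 or 2 it was 1 of 9 each, against 591 of 6795 and 747 of 6416 genes. With 1 WT library left out it was 1 or 2 of 9. Replicate 3 was the library in which members stood low, so the 5 of 9 follows in part from that choice and was not taken as evidence.

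**Figure D4:**
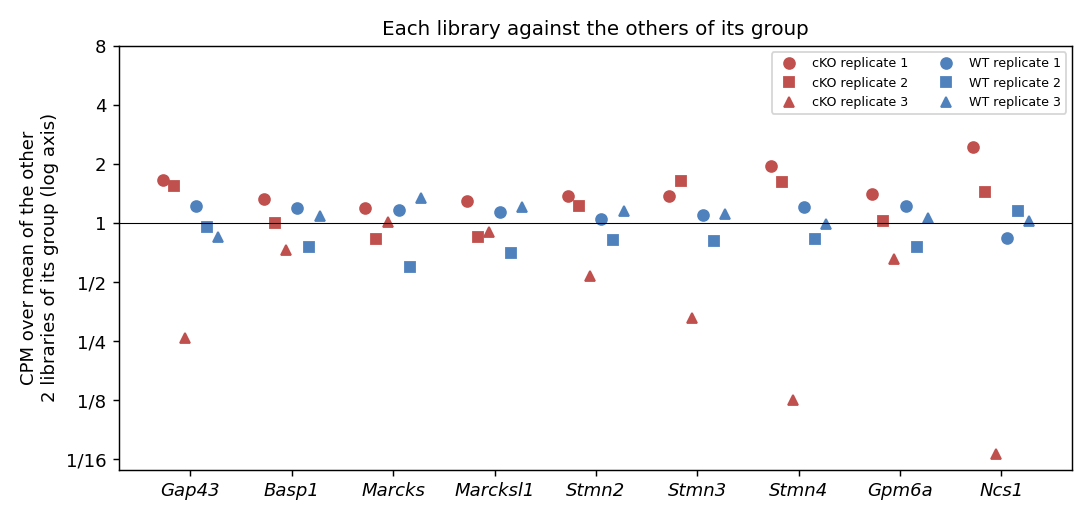
CPM of each gene in each library divided by the mean of the other 2 libraries of its group (log axis; cKO red, WT blue; symbols give the replicate number). In cKO replicate 3 (red triangles) Ncs1 is at 0.0662, Stmn4 at 0.125, Marcks at 1.01 and Marcksl1 at 0.897. The median of 3048 abundant genes in that library is 0.737. WT points lie between 0.598 and 1.34.

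The members also differ in gene structure. Basp1, Marcks and Marcksl1 have 2 exons and Gap43 has 3, against 5 to 8 in Stmn2, Stmn3, Stmn4, Gpm6a and Ncs1. Genes with up to 3 exons were lost in some libraries. Of 208 such genes with a mean of at least 50 CPM, 4.81%, 1.92% and 19.2% had no more than 1 count in cKO replicates 1 to 3. The share was 26.0%, 5.77% and 18.3% in WT replicates 1 to 3. Of 2826 genes at that level with more than 3 exons, it was 0.566%, 0.212% and 1.95% in cKO and 2.3%, 0.212% and 1.27% in WT. None of the 4 members with few exons was lost in any library. Basp1 had 4002, 4496 and 2556 counts in cKO replicates 1 to 3 and 1916, 1957 and 1721 in WT replicates 1 to 3. The part that the loss of genes with few exons has in the members' values was not tested. Nor was it tested for the partner and marker genes given below, some of which were not counted in some libraries.

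Since the deleted gene belongs to the m6A writer, the transcripts were searched for GGACT, the form of the m6A consensus most often methylated, on the sense strand of the GENCODE M21 transcript. In 5 members the motif occurred: Ncs1 had 5 copies, Marcks and Gpm6a 3 each, and Stmn2 and Stmn4 1 each. Gap43, Basp1, Marcksl1 and Stmn3 had 0. Of 5892 tested genes with a matched transcript, 92.4% held it, with a median of 1.05 copies per kilobase. The rates of the members with the motif were 0.482 to 1.07 per kilobase. The median transcript had 3120 bases, whereas the 4 members with 0 copies had 1136 to 1855. For the shorter GGAC, which overlaps GGACT and was held by 99.7% of genes at a median of 4.28 per kilobase, the members ran from 0.88 per kilobase in Stmn3 to 6.14 in Stmn4. The copy closest to the stop codon in each member, with 8 bases on either side and the motif in capitals, reads as follows (GRCm38 coordinates of the motif).
Marcks, chr10:37134305-37134309, minus strand, 3′ UTR: tgttgaatGGACTtattgtca
Stmn2, chr3:8561306-8561310, plus strand, 3′ UTR: agcactgtGGACTtttactca
Stmn4, chr14:66344403-66344407, plus strand, 5′ UTR: tggaaaccGGACTgcagggct
Gpm6a, chr8:55037487-55037491, plus strand, coding: gttggcaaGGACTgctggaga
Ncs1, chr2:31280684-31280688, plus strand, coding: ttcattaaGGACTgccccagc

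Methylation was not measured in these libraries, so a copy of the motif is a string of letters and no known site. Basp1 had 0 copies of GGACT and 7 of GGAC, and Stmn4 had 1 copy of GGACT, in its 5′ UTR, and 8 of GGAC. Whether copies of either motif go with the members' fold changes was not tested.

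Relatives of the members were looked at in the same fit. Gpm6b, the relative of Gpm6a that glia also make, stood at −0.67 (SE 0.27) and the calmodulin-binding Pcp4 at −1.10 (SE 0.49), neither past the threshold (edgeR adjusted p = 0.381 and 0.427). Stmn1, the cytosolic stathmin that lacks the membrane anchor, had 3370, 2890 and 2610 CPM in cKO and 2490, 1700 and 2480 CPM in WT (log2 fold change 0.41, SE 0.21, edgeR adjusted p = 0.493).

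Of 14 tested partners in growth cone membranes and G protein signalling, edgeR called 1 higher and 0 lower (median −0.048), and 0 of either without cKO replicate 3. DESeq2 called 3 and limma-voom 1, and in edgeR the unadjusted p of 4 was below 0.05. Of all tested genes edgeR called 0.912%, DESeq2 7.25% and limma-voom 0.71%, and 12.6% had an unadjusted edgeR p below 0.05. These shares are the background for each list below too. The gene called by edgeR was Cd24a, a glycosylated surface protein of young neurons, with 2140, 1750 and 2040 CPM in cKO and 665, 471 and 634 CPM in WT (log2 fold change 1.74, SE 0.23, edgeR adjusted p = 0.0282). Syt11, a vesicle protein, stood at −0.81 (SE 0.19), the G protein subunit Gnai2 at −1.07 (SE 0.34) and the cannabinoid receptor Cnr1 at 5.54 (SE 1.79), none of them past the threshold. Cnr1 had 610, 671 and 574 counts in cKO and 0, 0 and 43 in WT.

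Of 19 tested genes for protein kinase C, calmodulin, calcineurin and phosphoinositide enzymes, all 3 tools (edgeR, DESeq2, limma-voom) called 0 genes, and 1 gene had an unadjusted p below 0.05 (median 0.15). That gene was Prkca, protein kinase C alpha, at 1.19 (SE 0.38). Of 17 tested stathmin kinases and phosphatases these tools called 0 genes too, and 2 genes had an unadjusted p below 0.05 (median 0.16): Prkacb, a catalytic subunit of protein kinase A, at 1.06 (SE 0.39), and Cdk5r1, the neuronal activator of Cdk5, at 3.42 (SE 1.40) with 1132, 1177 and 937 counts in cKO and 0, 200 and 184 in WT. Of 8 tested palmitoylation enzymes DESeq2 called 1, edgeR and limma-voom called 0, and in edgeR the unadjusted p of 2 was below 0.05 (median −0.21), Zdhhc2 at −1.72 (SE 0.48) and Zdhhc13 at 1.52 (SE 0.60). Of 10 tested proteins known to bind Gap43 or related neuronal mRNAs, DESeq2 called 1, edgeR and limma-voom called 0, and in edgeR the unadjusted p of 2 was below 0.05 (median 0.19), Fmr1 at 2.50 (SE 0.62) and Celf2 at 0.55 (SE 0.21).

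Markers of the cell types in the dissected tissue differed between the groups in the same libraries. Of 9 tested excitatory neuron markers edgeR called 1 higher, against 0.49% of all tested genes. It was Neurod2, with 1973, 1996 and 1470 counts in cKO and 0, 0 and 0 in WT. Loss of genes with few exons, described above, was not examined for the marker genes. Its part in these counts and in the sums below was not tested. Cortical excitatory neuron markers (14 genes) summed to 5640 to 6480 CPM in cKO and 513 to 1050 in WT, with Neurod1, Neurod2 and Bcl11b at 0 in all WT libraries. Pan-neuronal markers (12 genes) summed to 14400 to 19700 CPM in cKO and 11400 to 13600 in WT, with Nefm at 0 in all cKO libraries. Of 9 tested pan-neuronal markers DESeq2 called 3, edgeR and limma-voom called 0, and in edgeR the unadjusted p of 3 was below 0.05. The 2 most abundant, Dpysl3 and Mapt, stood at log2 fold changes of 0.14 (SE 0.20) and 0.27 (SE 0.19). Interneuron markers (11 genes) summed to 503, 707 and 31.1 CPM in cKO replicates 1 to 3 and to 982 to 1390 in WT, and Dlx1 had 243, 281 and 1 counts in these cKO libraries and 413 to 587 in WT. Replicate 3 of cKO, low in Gap43, Stmn3, Stmn4 and Ncs1, was also the lowest cKO library in pan-neuronal markers (14400 CPM), interneuron markers, oligodendrocyte precursor markers (549 CPM, against 1280 and 1310 in cKO replicates 1 and 2) and astrocyte markers (1680 CPM). In it Olig1 had 0 counts, against 706 and 625 in cKO replicates 1 and 2, and Slc1a2 had 11, against 442 and 561. Ptprz1, also a precursor marker, had 378, against 225 and 655, and the astrocyte marker Sparcl1 had 341, against 644 and 873. The same library was the highest of cKO in radial glia markers (3100 CPM, against 2710 and 2660) and microglia markers (433 CPM, against 130 and 384). It was the lowest in endothelial and mural markers (56.6 CPM) and proliferating cell markers (126 CPM). Its excitatory neuron markers, at 6040 CPM, lay between those of the other cKO libraries.

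Glial lists had lower sums in cKO. Oligodendrocyte markers (12 genes) summed to 3.0 to 10.8 CPM in cKO, with 7 at 0 in all cKO libraries, among them Mog, Mag and Myrf, and to 2550 to 4130 CPM in WT, with Mobp and Opalin at 0. Oligodendrocyte precursor markers (10 genes) summed to 549 to 1310 CPM in cKO and 4110 to 4560 in WT, with Sox10, Matn4 and Gpr17 at 0 in all cKO libraries. Astrocyte markers (12 genes) summed to 1680 to 2360 CPM in cKO and 7360 to 8430 in WT, and radial glia markers (10 genes) to 2660 to 3100 in cKO and 5540 to 7860 in WT. Of those tested, edgeR called 6 of 6 oligodendrocyte, 1 of 4 precursor, 2 of 9 astrocyte and 2 of 8 radial glia markers lower and 0 higher. Among them was Fabp7 at −1.70 (SE 0.24, edgeR adjusted p = 0.0339). Of all tested genes edgeR called 0.422% lower. Without cKO replicate 3 these counts were 3, 1, 4 and 0, against 0.21% of all genes lower. The other lists were small in sum: microglia 130 to 433 CPM in cKO and 217 to 691 in WT, endothelial and mural cells 56.6 to 140 in cKO and 244 to 372 in WT, and proliferating cells 126 to 424 in cKO and 638 to 977 in WT. The part of these differences in the members' values was not tested.

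**Figure D5:**
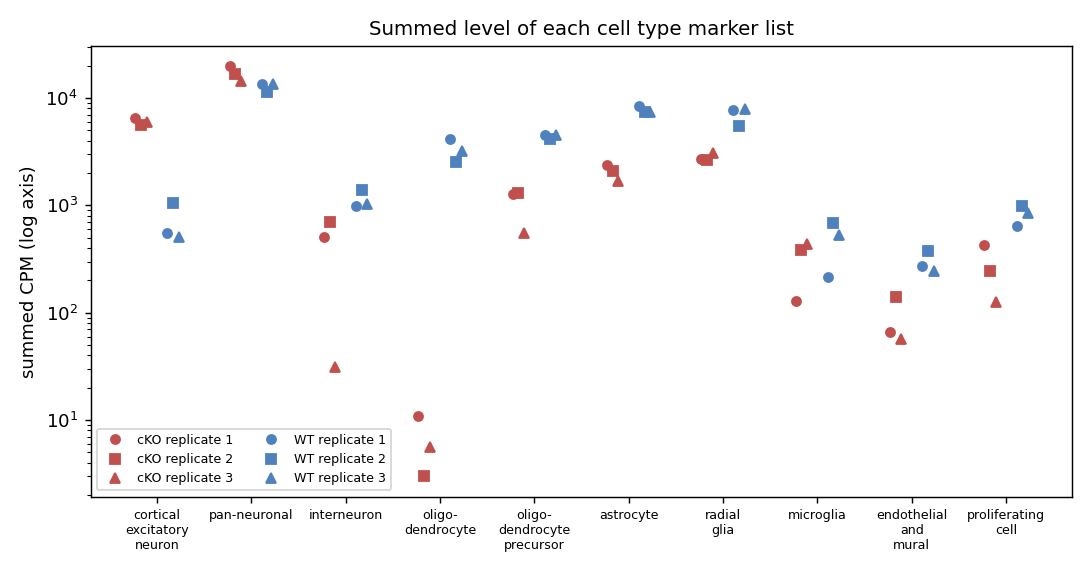
Summed CPM (log axis) of each cell type marker list in each library (cKO red, on the left of each pair; WT blue; symbols give the replicate number). Excitatory neuron markers sum to 5640 to 6480 in cKO and 513 to 1050 in WT, oligodendrocyte markers to 3.0 to 10.8 in cKO and 2550 to 4130 in WT, and the interneuron list in cKO replicate 3 stands at 31.1.

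The genes whose profile over the 6 libraries came closest to each member were named by distance, the root mean square difference between log2(CPM + 1) values centred on each gene's mean, among 4947 other genes with a mean of at least 20 CPM. Closest to Gap43 was Tubb2a, a neuronal beta tubulin, at a distance of 0.149, with 3580, 3280 and 1080 CPM in cKO and 1710, 1670 and 1570 CPM in WT. Closest to Gpm6a was Dpysl3, a collapsin response mediator protein of growth cones, at 0.0581, and closest to Stmn2 was H3f3b, a histone gene, at 0.0782. Marcksl1 had Eef1a1 at 0.0747 and Stmn1 at 0.0755, and Marcks had Snx6 at 0.0621 and Rpl12 at 0.0846. Basp1 had Ptp4a1 at 0.154 and Pja1 at 0.169, both higher in every cKO library than in any WT library. Stmn4 had Morn4 at 0.184, with 165, 148 and 14.1 CPM in cKO and 23.6, 14.5 and 22.1 CPM in WT, and the cofilin gene Cfl2 at 0.219. Ncs1 had the actin-regulating Arpc5l at 0.199, with 157, 174 and 9.9 CPM in cKO and 80.9, 101 and 79.2 CPM in WT, and Stmn3 had Naca at 0.127. The distance to the closest gene was smallest for Gpm6a, Marcks, Marcksl1 and Stmn2 and largest for Ncs1 and Stmn4. How many genes share each kind of profile was not counted, so a small distance alone does not link a gene to a member.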

How the data were processed

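The members and gene lists were chosen with earlier results of these data known. Each library has a transcript table deposited by the authors. Tools were RSEM 1.3.3 and STAR 2.7.10b on build mm10, per the submitters' processing notes, and for annotation release and strand setting the sources used here give nothing. The deposited expected counts are estimated fragments per transcript per the file headers. They were summed per gene and rounded. The deposited TPM values, scaled by the authors to transcript length and library size, were summed per gene. The effective length and other deposited columns gave the fragment length. Of 24411 genes 23880 got an exon number from GENCODE M21, through RefSeq accessions; gene positions came from a RefSeq table of GRCm38, the assembly of mm10. The kit is not stated to mark strand, so overlapping antisense genes and close paralogs such as stathmins can share reads.

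The main test was edgeR 4.0.16 in R 4.3.3 (quasi-likelihood, TMM, filterByExpr with a minimum count of 10, no covariate), adjusted over all 5918 tested genes and called below 0.05. CPM uses the TMM scale, on which 1 count is 0.803 to 1.41 CPM per library. Each SE was taken as |log2 fold change| divided by the root of F, so it restates the p-value. As alternatives, scaling was by RLE or upper quartile, low counts were filtered otherwise (none, or 1 CPM in 3 libraries), and tests were DESeq2 1.42.0 or limma 3.58.1 (voom, or log2(TPM + 1) with a mean TPM of at least 1); the replicate number was also used as a block, replicate 2 as a batch, and libraries were left out. The test was run first on simulated data with known changes. With the spread estimated per gene from these libraries, it called 1.72% of genes set at a log2 change of −3 and 7.55% at 3. At −1.5 and 1.5 it called 0%. With a fixed low spread it called 91.4%, 72.3%, 100% and 100% at −3, −1.5, 1.5 and 3. A p that misses the threshold does not show that values did not differ. All pairs of libraries differed beyond counting noise (chi-square of at least 14.9 per degree of freedom). The text names all 9 members, up to 4 genes with the smallest p per related list, up to the 2 most abundant tested genes per marker list, and the 2 closest profiles per member, of which some are left out; genes at 0 were named after their values were seen, as were Xist and Eif2s3y. Coding starts, motifs and the comparison of each library with the others of its group were added after values were seen. Total expected counts were 670462 to 1268430 per library. Some genes of these lists are not reported here, and neither is the count of calls over the relatives of the members.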

Additional observations from a re-analysis of the deposited data

How the results depend on the processing

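Over 9 members and 16 alternatives, 131 fold changes kept their direction and their side of the threshold, 10 turned sign and 3 newly passed. Those that turned sign, none past the threshold, were Stmn2 (−0.065) and Gpm6a (−0.18) with upper-quartile scaling, Ncs1 with limma-voom (−0.12), with limma on log2(TPM + 1) (−0.24) and with the replicate block (−0.022), and, with 1 library left out, Gpm6a (−0.051) and Ncs1 (−0.10) when cKO replicate 1 was dropped, and Stmn3 when WT replicate 1 (0.0056), WT replicate 3 (0.0028) or cKO replicate 3 (0.34) was dropped. Relative to the median of all genes, which upper-quartile scaling moved to −0.22, Stmn2 (0.16) and Gpm6a (0.045) did not turn. With 1 library left out, Gap43 ran from 0.19 to 0.98, Stmn2 from 0.084 to 0.57, Marcks from −0.55 to −0.20, Marcksl1 from 0.17 to 0.44, Stmn3 from −0.31 to 0.34, Gpm6a from −0.051 to 0.38 and Ncs1 from −0.10 to 1.12. Those that newly passed were Basp1 and Stmn4 with DESeq2 and Basp1 with limma on log2(TPM + 1), so 2 and 1 members were called there, against 0 under each other alternative. The cause was not tested. Over all alternatives Basp1 ran from 0.88 to 1.38 (adjusted p = 1.56e-06 to 0.56) and Stmn4 from 1.69 to 2.75 (adjusted p = 0.0359 to 0.671).

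Over all genes, 54 calls became 22 with no filter and 22 with 1 CPM in 3 libraries, where more genes were tested, 429 with DESeq2, 19 with replicate 2 as a batch term, 0 without both replicate 2 libraries (edgeR, 740 at an unadjusted p below 0.05) and 0 to 42 with 1 library left out, the 0 being without WT replicate 3 or cKO replicate 1 (edgeR, 573 and 591 at an unadjusted p below 0.05). Same-numbered libraries deviated together with correlations across genes of 0.0503, 0.456 and 0.155, so the numbers were not taken to pair them, and not every library correlated best with its own number. The replicate 2 libraries stood out, since cKO replicate 2 was at 0.456 with WT replicate 2 but −0.272 and −0.253 with WT replicates 1 and 3. With the replicate block edgeR called 1 gene, not a member, and Basp1 stood at 1.23 (edgeR adjusted p = 0.218). Without a library, a group of 2 shares the spread of all libraries left. Depth limits Ncs1 and Stmn4 most, which had 23 and 47 counts in cKO replicate 3; counting error alone does not cover the spread between libraries.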
